A study of Saccharomyces cerevisiae with 32 samples.

Results

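The variants described here are amino acid substitutions in strand β4 of PDZ3, one of the PDZ domains of PSD95, a scaffold protein of synapses. They were measured for binding to a peptide from the protein CRIPT. The strand was taken as residues 56 to 60 of the listed PDZ3 sequence, which are Q56, I57, L58, S59 and V60 and correspond to PSD95 residues 358 to 362. A variant was included when it carried exactly 1 substitution in these residues, no stop codon, and 0 or 1 substitutions in the 8 listed CRIPT residues. This gave 95 single substitutions, which are all the possible ones (19 at each residue), and 13505 of 14440 possible pairs with a CRIPT substitution (93.5%). Together they were 13600 of the 251627 sequences in the PDZ3-CRIPT table.

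PDZ domains are small folds of β strands and α helices that bind the C-terminal end of their partners. The peptide lies in a groove between strand β2 and helix α2, where it extends the sheet as an added strand, and its last residue (here V8) and the residue at ligand position -2 (here T6) make the contacts that define the ligand class. Strand β4 lies outside that groove. In a β strand, side chains point alternately to either face of the sheet, so that neighbouring residues often meet different surroundings, with the core on one side. Proline lacks the backbone hydrogen that strands use to pair.

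Libraries of variants were carried by yeast of strain BY4741 in a protein complementation assay, in which growth with methotrexate depends on the interaction between the fused partners. Per the labels, the PDZ3-CRIPT library was grown in 2 blocks with 3 biological replicates each. Input cultures grew for 5 generations before the drug was added, and output cultures for about 5 more in 200 µg/mL methotrexate. The deposited table gives 1 fitness score per amino acid sequence with an error, both pooled over replicates by the authors. A score near 0 is growth like wild type and a lower score is slower growth. All values below are such scores, or differences between them, followed by ± the authors' error where given alone. No spread between replicates could be given, and the read depth is unknown. In this assay a lower amount of folded PDZ3 in the cell and weaker binding per molecule cannot be told apart.

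Wild type scored -0.000512 ± 0.00383. The lower end of the scale was set by stop codons. The 24 listed single stop codons in PDZ3 residues 51 to 100 scored between -0.940 and -0.731, and those at residues 56 to 60 between -0.874 and -0.812. Scores at or below -0.731 are called the stop range here. This cut is the score of the stop at residue 51, and the next highest stop scored -0.784. The 24 all lie at residues 51 to 74. All 5301 variants with a stop codon listed with residues 51 to 100 scored between -1.125 and -0.373, with a median of -0.799. Pairs at the level of a stop can therefore score above the cut. The median error was 0.0112 for the strand's single substitutions and 0.0412 for its pairs. Each variant was compared with wild type by a two-sided z test on the scores and their errors, adjusted by the Benjamini-Hochberg method over all 142250 variants listed with PDZ3 residues 51 to 100, with a threshold of 0.05. A value is called higher or lower than another only where it was past that threshold, and a difference is followed by its propagated error.

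The strand was tolerant at most substitutions and intolerant at 2 residues, I57 and V60. Of the 95 single substitutions 38 scored lower than wild type, which is 40%, against 37.6% of all PDZ3 single substitutions at residues 51 to 100. Another 9 scored higher, which is 9.47%, against 21.8% over residues 51 to 100. The other 48 were not past the threshold. The median effect was -0.00902 in the strand and -0.00643 over residues 51 to 100, while the mean effect was -0.169 in the strand and -0.0821 over residues 51 to 100. Substitutions in the stop range numbered 13 in the strand (13.7%), against 4.12% over residues 51 to 100. Of these 13, 10 were at I57 and the other 3 were proline at Q56, S59 and V60. I57G, I57K and V60P lay above the highest stop codon within the strand, at -0.812. The next strand after helix α2, β6 (residues 83 to 90), had 46.1% of its single substitutions lower than wild type and 4.61% in the stop range.

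By residue, the mean effect of the 19 substitutions was -0.525 ± 0.00728 at I57, -0.212 ± 0.00538 at V60, -0.0500 ± 0.00481 at Q56, -0.0340 ± 0.00498 at S59 and -0.0251 ± 0.00469 at L58, where ± is the propagated error. I57 had the lowest mean of the 50 residues from 51 to 100, and V60 ranked 8. The mean at H70, the next lowest, was close at -0.521 ± 0.00683. Measured over CRIPT partners within 0.05 of wild type, as described below, the order was reversed, with -0.497 at H70 and -0.491 at I57. The difference between I57 and H70 was not tested. The means at Q56, L58 and S59 rested largely on proline. Without proline they were -0.00670 ± 0.00466 at Q56, 0.00775 ± 0.00468 at L58 and 0.0114 ± 0.00484 at S59. The median effects at these 3 residues lay above 0, at 0.00590, 0.00164 and 0.00993 in the same order. Of the 54 substitutions other than proline at Q56, L58 and S59, 53 lay within 0.06 of wild type. The exception was Q56D. With the window of 0.05 used below, Q56M (effect 0.0594), L58V (0.0529) and L58M (0.0532) also fell outside, all above wild type.

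I57, a core residue of the domain, accepted only residues of certain kinds. Replacement by the aliphatic residues leucine and valine left growth close to wild type, with scores of -0.00953 ± 0.0112 for I57L and -0.00764 ± 0.0142 for I57V, neither past the threshold. I57C scored -0.0228 ± 0.00887 and I57A -0.0452 ± 0.00952, small drops that were past the threshold. The drop of I57C was no longer past it with an added error of 0.0118 per value, which was estimated from 151 CRIPT substitutions that the table lists 2 times. I57T at -0.0957 ± 0.0101 and I57M at -0.101 ± 0.0177 were lower. I57F, the largest hydrophobic residue that was partly accepted, scored -0.186 ± 0.0109. All other replacements apart from proline were severe.

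The severe substitutions at I57 included every charged residue. The 3 basic residues lay between -1.002 and -0.803, and the acidic I57D and I57E had -0.825 ± 0.0291 and -0.860 ± 0.0280. The amides I57N and I57Q scored -0.856 ± 0.0296 and -0.839 ± 0.0264. Of the aromatic residues, I57Y scored -0.901 ± 0.0345 and I57W -0.839 ± 0.0263. The small residues glycine and serine gave -0.761 ± 0.0233 and -0.652 ± 0.0188, with I57S the only one of these 11 above the stop range. The lowest listed values were I57R at -1.002 ± 0.0544, I57H at -0.943 ± 0.0390 and I57Y. The first 2 lie below every single stop codon of PDZ3 residues 51 to 100, so they are not read as a size of effect beyond that of a stop.

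Pairs of similar residues at I57 separated sharply. Differences between substitutions at the same residue were tested by z tests adjusted over all 8496 such pairs at residues 51 to 100, of which 51.1% differed. At I57 133 of 171 pairs differed. Tyrosine differs from phenylalanine by a hydroxyl group, and I57F exceeded I57Y by 0.715 ± 0.0362. Serine and cysteine differ by oxygen in place of sulphur, and I57C exceeded I57S by 0.629 ± 0.0208. Threonine carries a methyl group that serine lacks, and the difference of I57S from I57T was -0.557 ± 0.0213. Glycine lacks the methyl group of alanine, and the difference of I57G from I57A was -0.716 ± 0.0252. Leucine and valine were not distinguished, with a difference of -0.00189 and a 95% interval from -0.0374 to 0.0337.

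V60, the last residue of the strand, gave a graded range in place of the sharp division at I57, and 152 of its 171 pairs of substitutions differed from each other. The scores ran from -0.784 ± 0.0257 for V60P to 0.0481 ± 0.0103 for V60G. Glycine, which removes the side chain, was the only replacement past the threshold above wild type. V60S at 0.0261 ± 0.0137, V60C at 0.0359 ± 0.0329, V60T at -0.00685 ± 0.0102, V60A at -0.00697 ± 0.0117 and V60E at -0.0136 ± 0.0111 were not past the threshold in either direction. V60C had the fewest listed pairs of the 95 substitutions, 9 against a median of 147 per substitution at V60.

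Larger hydrophobic residues at V60 lowered growth although they share the class of valine. V60I scored -0.164 ± 0.0145, V60L -0.177 ± 0.0133 and V60M -0.0951 ± 0.0111. Isoleucine has the branched side chain of valine with 1 more carbon, and its difference from V60A was -0.157 ± 0.0186. V60I and V60L were not distinguished (difference 0.0136, 95% interval -0.0250 to 0.0522). Among aromatic residues the order was V60W at -0.556 ± 0.0234, V60F at -0.286 ± 0.0158 and V60Y at -0.0454 ± 0.0115. The order of phenylalanine and tyrosine was thus opposite to that at I57, with V60Y above V60F by 0.240 ± 0.0195.

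Charge alone did not order the substitutions at V60. The acidic residues V60D and V60E, which differ by 1 carbon in the side chain, were -0.698 ± 0.0262 apart (V60D minus V60E), with V60D at -0.712 ± 0.0237. The basic residues V60K at -0.464 ± 0.0138 and V60R at -0.417 ± 0.0141 lay between them, and V60H scored -0.208 ± 0.0112. The amides V60N and V60Q scored -0.145 ± 0.0105 and -0.0766 ± 0.0101. V60D was lower than V60N by a difference of -0.567 ± 0.0260, while V60E was higher than V60Q by 0.0630 ± 0.0150.

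Q56, the first residue of the strand, tolerated residues of every class except proline, and of the acidic pair tolerated only glutamate. Q56D scored -0.220 ± 0.00961, while Q56E scored 0.0328 ± 0.010, past the threshold above wild type, and Q56N 0.0430 ± 0.0113. The call of Q56E above wild type was lost with the added error. The difference between Q56D and Q56E was -0.253 ± 0.0139. Aspartate was therefore below glutamate at both ends of the strand, although at L58 and S59 both acidic residues lay within 0.06 of wild type. The highest value at Q56 was that of methionine, 0.0589 ± 0.0133, and Q56G scored 0.00670 ± 0.00946. Q56I, at -0.0212 ± 0.00914, lay just past the threshold below wild type and fell short of it under 4 of the 5 alternatives tried. Q56R at -0.0244 ± 0.0120 and Q56T at 0.0206 ± 0.0106 were not past it.

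At L58 and S59 almost any side chain was accepted. Apart from proline, scores at L58 ran from -0.0255 ± 0.0102 for L58W to 0.0527 ± 0.0182 for L58M, and at S59 from -0.0159 ± 0.0107 for S59L to 0.0484 ± 0.0207 for S59W. L58V at 0.0524 ± 0.0112 and L58M scored higher than wild type, and the other aliphatic replacements L58I and L58A had 0.0337 ± 0.0188 and 0.0187 ± 0.00981, not past the threshold. L58W, L58R and L58D were past the threshold below wild type with effects of -0.0249 to -0.0225, calls that were lost with the added error. At S59 no substitution but proline was lower. S59T at 0.0409 ± 0.0130, S59E at 0.0294 ± 0.0127 and S59W were higher, calls that were also lost with the added error. Glycine, which is a poor strand former, scored -0.00544 ± 0.00851 at L58 and 0.0155 ± 0.0111 at S59.

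Proline was the lowest substitution at 4 of the 5 residues. The same held at 25 of the 49 residues from 51 to 100 with a listed proline substitution. S59P scored -0.852 ± 0.0286, Q56P -0.830 ± 0.0276, V60P -0.784 ± 0.0257 and L58P -0.617 ± 0.0176. The first 3 were in the stop range, and L58P was above it. I57P, at -0.243 ± 0.0103, was the mildest, and it exceeded its neighbours Q56P by 0.587 and L58P by 0.374. Within I57 it also exceeded I57G by 0.518 ± 0.0255 and I57S by 0.409 ± 0.0214. Over 49 residues from 51 to 100 with a listed proline substitution the median was -0.145. The stop median used here, -0.799, is that of all 5301 variants with a stop codon, and 15 of the proline scores lay below 50% of it. At 6 of these 15, all other substitutions stayed above 25% of the stop median, and L58 and S59 were among them.

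Neighbouring residues were compared at the same new residue by z tests adjusted over 880 such comparisons at residues 51 to 100, of which 71.2% differed. Between Q56 and I57, 16 of 18 shared new residues differed, 15 with I57 lower and 1, proline, with Q56 lower. Between I57 and L58, 17 of 18 differed, 16 with I57 lower, and proline was again the exception. Between S59 and V60, 15 of 18 differed, 14 with V60 lower and glycine with S59 lower. L58 and S59 were the most alike pair, with 5 of 18 past the threshold and a median difference of -0.00110. I57 was thus a sensitive residue between 2 tolerant neighbours, while L58 and S59 were both tolerant.

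The effect of each strand substitution could be measured again in other sequences, as the pair score minus the score of the CRIPT substitution alone. The 35 CRIPT substitutions within 0.05 of wild type served as partners. For all 81 strand substitutions above the stop range that had such partners, the median over partners lay within 0.05 of the directly measured effect, with differences from -0.0296 to 0.0421. I57P had a median of -0.213 with an SD of 0.0492 over 35 partners, I57F -0.193 with an SD of 0.0440, V60K -0.456 with an SD of 0.0443 and V60I -0.174 with an SD of 0.0448. In the stop range the differences were larger, from -0.176 to 0.0236 over 13 substitutions. I57R and I57H, the lowest direct values, had medians of -0.825 and -0.803. The 9 substitutions past the threshold above wild type all had a median above 0, and 7 of these medians were smaller than the direct effect. Q56M had 0.0206 in place of 0.0594, V60G 0.0175 in place of 0.0486 and S59W 0.00685 in place of 0.0489, each less than the SD over partners.

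Pairs of a strand and a CRIPT substitution varied with both residues. By strand residue the median pair score was -0.735 at I57, -0.406 at V60, -0.203 at Q56, -0.185 at S59 and -0.183 at L58. Of the 13505 pairs 10338 scored lower than wild type (76.5%), against 74.2% of all PDZ3-CRIPT pairs at residues 51 to 100. Another 229 of the 13505 scored higher, against 2609 of all 135850 (1.92%), so the strand's share was slightly below that of all pairs. By CRIPT residue the median pair score was -0.0171 with substitutions at CRIPT N2, -0.0923 at K1, -0.137 at Y3, -0.261 at Q5, -0.268 at S7, -0.342 at K4, -0.736 at V8 and -0.742 at T6. T6 and V8 pairs reached the stop range in 53.8% and 51.3% of cases, near the 48.2% and 46.7% over all pairs at residues 51 to 100. All 1485 pairs with T6 were lower than wild type, as were 99.7% of T6 pairs over residues 51 to 100. The mildest change at T6, T6S, gave a median of -0.148 over 60 strand substitutions within 0.05 of wild type, against -0.156 for T6S alone. At V8 the mildest, V8C, gave -0.0941 over 60, against -0.0939 alone.

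At the tolerant residues, most pairs scored close to the CRIPT substitution alone. Subtracting the score of the CRIPT substitution alone left a median of 0.00583 for pairs with Q56, 0.0132 with L58 and 0.0128 with S59. At these residues the pairs with T6 and V8 stood higher, with medians of 0.0597 and 0.0671 at Q56, 0.0680 and 0.0805 at L58, and 0.0833 and 0.102 at S59. Some T6 and V8 substitutions alone were listed below every single PDZ3 stop codon, such as T6P at -1.315 and V8E at -1.312, whose medians over strand substitutions within 0.05 of wild type were -0.796 and -0.777. The same median over all CRIPT residues was -0.101 for V60 and -0.233 for I57. For I57 it differed between CRIPT residues. It was -0.616 with K1 substitutions and -0.669 with N2 substitutions, which are mild by themselves, -0.378 with K4, -0.0620 with T6 and 0.00580 with V8. Fewer I57 pairs were listed with T6 (236) and V8 (237) than with N2 (360). Severe I57 substitutions also had fewer listed pairs, such as 104 for I57R against 151 for I57T. These medians therefore do not cover the same sets of substitutions. The T6 and V8 substitutions alone had median scores of -0.783 and -0.852, in the stop range. A further drop from I57 could therefore hardly be seen with them, and the values near 0 do not show a milder effect of I57. Among I57 pairs 1257 of 2491 (50.5%) lay in the stop range. The share was 21.9% over all 13505 strand pairs and 14.5% over all 135850 pairs compared above. It was lowest in the strand at L58, with 353 of 2838 (12.4%). For I57P the median was -0.221 over CRIPT residues 1 to 4 and -0.0988 over T6 and V8, where the low scores of the CRIPT substitutions set the same limit.

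Dependence between strand and ligand was examined as the deviation of a pair from a monotonic curve of pair score on the sum of the single effects, fitted over 135805 pairs at residues 51 to 100. Of the strand's pairs 90 lay above the curve and 15 below it, against 0.666% above and 0.149% below over all pairs, so the strand's share of 0.777% lay close to the overall share of 0.815%. The counts depended on how the single effects were combined. With a plain sum they were 806 above and 64 below, with a product above the stop level 123 and 50, and with the added error 58 and 4. Most of the 90 and 15 carried a change at S7, with 79 of the 90 above and 13 of the 15 below. Off-curve pairs made up 5.28% of the strand's S7 pairs, against 4.79% of S7 pairs over residues 51 to 100. S7N took part in 63 and S7D in 15 of those above, and S7T in all 13 of those below. Ranked by the deviation over its error (z), the first above was L58K with S7N, at -0.214 ± 0.0331 against an expected -0.467, followed by S59D, Q56I, S59G and I57C with the same S7N at -0.289 to -0.171. The first below by z was L58H with S7T, at -0.135 ± 0.0272 against an expected 0.0189, followed by Q56D, I57A, V60E and I57P with S7T. By size alone others deviated more, up to S59W with V8P above (-0.401 ± 0.0822 against an expected -0.754) and V60R with S7T below (-0.566 ± 0.0485 against -0.381).

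The S7 deviations were shared by many strand substitutions. Over the 60 strand substitutions within 0.05 of wild type that had the pair, the median score was -0.279 for S7N pairs and -0.0632 for S7T pairs, whereas S7N alone was listed at -0.493 ± 0.00636 and S7T alone at 0.0478 ± 0.00518. S7D gave -0.450 in 61 such pairs and -0.603 ± 0.00569 alone, while S7I gave -0.384 in 60 pairs and -0.393 ± 0.00488 alone. With the median deviation of each substitution removed, 2 of the 13505 strand pairs were left above the curve and 0 below. Over all 135805 pairs 107 (0.0788%) were above and 0 below, so the strand's share above was the smaller. At an unadjusted p under 0.05, the z test put 226 of the 13505 strand pairs above and 87 below after that removal. Such a cut would be expected to pass a share of 0.05 of pairs without any deviation, which these counts did not reach. They are therefore not read as signs of dependence. The pairs left were Q56Y with T6Y, at -0.455 ± 0.0438 against an expected -0.713, and S59F with V8E, at -0.496 ± 0.0586 against -0.763.

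Some ligand changes raised the growth of strand variants. Pair scores were compared with the score of the same PDZ3 substitution alone, adjusted over the same 135805 pairs. A gain was found in 273 of the strand's pairs (2.02%), against 1.53% of all pairs. Q5E accounted for 84 of them, Y3W for 47 and N2K for 31. Y3W raised 50.5% of the strand variants measured with it, against 34.4% of the other PDZ3 substitutions at residues 51 to 100, and N2K 33.3% against 26.2%, differences that were not tested. Q5E raises growth with wild-type PDZ3 too, by 0.128 ± 0.00576. It raised 84 of the 94 strand variants measured with it (89.4%), against 86.5% of all PDZ3 substitutions at residues 51 to 100, so the gain was not confined to the strand.

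The gain from Q5E was seen in tolerant and in impaired strand variants. Over the 56 variants whose single substitution was not lower than wild type the median gain was 0.140, and over the 38 that were lower it was 0.169. L58P rose by 0.317 ± 0.0390, with a pair score of -0.300 against -0.617 alone. I57W rose by 0.343 ± 0.0535, to -0.496 against -0.839 alone. The median effect of I57W over the 35 partners within 0.05 of wild type was -0.747, so its gain over the direct score may be overstated. The same limit applies to other stop-range variants whose direct score lay below that median. V60R and V60K gained 0.239 ± 0.0391 and 0.224 ± 0.0363, and I57P gained 0.180 ± 0.0302. For 10 of the 94 the gain was not past the threshold. Of these, 6 were impaired variants, from I57K at 0.0358 ± 0.0936, I57Q, I57D, V60P and I57E to Q56P at 0.164 ± 0.0802. The other 4 were Q56K at 0.0651 ± 0.0343, S59W at 0.0671 ± 0.0404, S59Y at 0.0707 ± 0.0333 and L58I at 0.0709 ± 0.0387. Of the 38 with a lower single, 20 stayed lower with Q5E, 10 were not past the threshold and 8 were higher than wild type. These 8 (Q56I, I57A, I57C, L58W, L58R, L58D, V60Q and V60Y) were mild as singles, with scores from -0.0766 to -0.0212. The lower calls of Q56I, I57C, L58W, L58R and L58D were themselves lost under alternatives given above.

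Other pairs with large gains were less certain. The largest listed gains at I57 were I57R with Y3T at 0.380 ± 0.120 and I57Y with N2D at 0.357 ± 0.139. Both were past the threshold, and both start from a direct single score below the median over near-neutral partners. With that median in place of the single score, the number of pairs with a gain at I57 was 41 in place of 87, while at the other residues it stayed within 5 of the main count. At Q56 the largest gains were Q56W with Q5E at 0.179 ± 0.0324 and Q56P with N2R at 0.172 ± 0.0762. At L58, after L58P, L58G gained 0.204 ± 0.0266 with Q5E. At S59 the largest were S59P with N2R at 0.238 ± 0.100 and with N2Y at 0.20 ± 0.0889. At V60 they were V60R with Q5E, given above, and V60F with Q5E at 0.227 ± 0.0487.

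The highest scores among all the strand's variants were pairs with Q5E. S59T with Q5E reached 0.203 ± 0.0321, S59E with Q5E 0.201 ± 0.0363 and L58G with Q5E 0.199 ± 0.0252, each past the threshold above wild type. Of the 229 pairs higher than wild type, 63 carried Q5E, 37 Y3W and 23 N2K.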

How the data were processed

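Per the file headers, the authors deposited a fitness score and its error (sigma, also a score) for each amino acid sequence. Per the submitters' processing notes, cutadapt and FastQC were among the tools. The scoring tool, log base, count filters and kind of error are not given in the sources used here. Replicates were already merged and depth is unknown, so precision is the authors' error, and samples entered no test singly. From these scores, differences from wild type, from other substitutions and from single substitutions were divided by the root of summed squared errors. Two-sided normal p-values were adjusted by Benjamini-Hochberg over all such comparisons for PDZ3 residues 51 to 100, with a threshold of 0.05 (SciPy 1.17.1; isotonic curve from scikit-learn 1.9.0). All comparisons with wild type share its 1 value. No p-values are printed, since replicate scores were not at hand to check the errors behind them. Pairs whose PDZ3 single was not listed (45, none in the strand) were left out of the pair tests. Only the tests of singles against wild type and of pairs off the curve were tried on simulated data. The noise there was drawn from the authors' errors, so those errors were not checked by it. The simulated pair shifts were larger than any deviation called in the strand, so calls of the size reported here were not checked either. Named variants were, per residue, the 3 lowest and 3 highest singles, all higher ones, glycine, proline and residues of the wild-type class, the 5 pairs farthest above and below the curve by z and the 2 largest gains. Others (among them I57D, I57E, I57N, I57Q, I57W, V60K, V60R, V60F, V60H and V60Y, and the pairs of I57F with I57Y, I57S with I57T and the like) were chosen after their values were seen. Members and lists were chosen with earlier results of these data known. CRIPT-only tables were not used here. Alternatives are given in the closing section.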

Additional observations from a re-analysis of the deposited data

How the results depend on the processing

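The counts of strand singles lower than wild type (33 to 38 over 5 alternatives) and of differences within residues and between neighbours (371 and 46 with the added error, against 460 and 53) stayed within 1.5 times. The added error of 0.0118 per value left 5 of 9 singles higher than wild type. Of the 95 singles, 9 lost their call with it, 7 at a threshold of 0.01, 2 with adjustment over PDZ3 singles only and 1 among variants with the lower 50% of errors, and none changed direction. Pairs lower than wild type numbered 4304 among the lower 50% of errors, which kept 7366 pairs, and pairs higher numbered 128 at 0.01. Weighting by inverse squared error moved the means to -0.0184 at Q56, -0.208 at I57, -0.00780 at L58, -0.135 at V60 and, with the sign turned, 6.46e-05 at S59. Medians were 0.00590 at Q56, 0.00164 at L58 and 0.00993 at S59, all with the sign turned, -0.761 at I57 and -0.144 at V60. Near-neutral partners gave -0.491 at I57, -0.0406 at S59 and -0.231 at V60. Singles with the lower 50% of errors gave -0.0111 at Q56, -0.0999 at I57 (6 substitutions), -0.0605 at V60 (9) and, with the sign turned, 0.00326 at L58 and 0.00320 at S59. Low scores carry larger errors, so this and the weighting leave out or down-weight severe substitutions. Pairs above the curve numbered 806 with a plain sum, 58 with the added error and 2 with medians removed. Those below numbered 64 with a plain sum, 50 with a product above the stop level, 4 with the added error and 0 with medians removed. Gains numbered 148 at 0.01. No paired analysis was possible because the table holds merged scores, and replicates could not be left out in turn for the same reason.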

Other observations

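Profiles over new residues were compared between the strand and the other residues from 51 to 100, as a description only. The residue most like I57 in the order of its substitutions was L51 (Spearman's rho 0.802 over 18 shared new residues), followed by I86 in strand β6 (rho 0.723 over 19). For V60 it was A73 in helix α2 (rho 0.728 over 18). These points share the library and the wild-type value.

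For 7 of the 20 amino acids (G, H, N, Q, R, S and Y) the lowest score of any residue from 51 to 100 was that at I57. All of these scores but that of I57S lay in the stop range, so their order there is not read as a size of effect. Besides L58 and S59, the residues at which proline lay below 50% of the stop median while all others stayed above 25% of it were R52, I87, Q89 and K91. The proline scores there were -0.816, -0.791, -0.690 and -0.432.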
